A study of Mus musculus with 39 samples.

Results

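Chromatin at 6 genes of the bone morphogenetic protein (BMP) pathway was examined in naive extra-embryonic endoderm (nEnd), a mouse culture model of early primitive endoderm. The genes were the ligands Bmp2 and Bmp4, the type I receptor Bmpr1a and the target genes Id1, Id2 and Id3, out of 21911 protein-coding genes. For each gene, the listed peaks overlapping the gene body plus 20 kb on either side were taken from all 36 peak lists on GRCm38, which gave 127 of 432096 peaks. Of these, 38 were H3K4me1, 53 H3K27ac, 34 H3K27me3 and 2 H3K9me3 peaks. Of the 6 genes, all had at least 1 peak, from 11 peaks at Bmp2 to 32 at Id1.

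The cells were untreated nEnd from a single OCT4-mCherry reporter line, grown in defined medium with Activin A, CHIR99021 and LIF on feeder cells. They were sorted by FACS into OCT4-mCherry single-positive (Oct4+), double-positive (DP) and PDGFRA-APC single-positive (Pdgfra+) populations. Each of the 3 populations was profiled for 4 histone marks with 3 replicates by CUT&Tag, which inserts sequencing adapters next to antibody-bound chromatin. H3K4me1 lies at primed and active enhancers, H3K27ac at active enhancers and promoters, H3K27me3 at Polycomb-repressed genes and H3K9me3 at heterochromatin. The study calls its replicates biological, but the labels name no separate cultures, so a p-value measures the spread between these samples alone.

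BMP ligands bind a complex of type I and type II receptors, which phosphorylates SMAD1, SMAD5 and SMAD9. These enter the nucleus with SMAD4 and bind target genes, of which the Id genes are the best known. ID proteins lack a DNA-binding domain and sequester E proteins, which blocks differentiation driven by basic helix-loop-helix factors. BMP acts together with LIF to maintain mouse embryonic stem cells through Id genes, and in the embryo Bmp4 is made by the epiblast and extra-embryonic ectoderm, and Bmp2 by the visceral endoderm.

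The lists differed in length and in the weakest peak they contain, and both bear on every absence reported here. H3K4me1 lists held 1074 to 16057 peaks, H3K27ac lists 3079 to 65131, H3K27me3 lists 1143 to 8672 and H3K9me3 lists 5322 to 29970. The weakest peak of a list, by total signal (fragment coverage summed over its bases, not scaled to depth), had a value of 5460 to 6021 in Oct4+ H3K27ac lists, 13683 to 14586 in DP and 8736 to 28044 in Pdgfra+. A region with no listed peak may thus still carry the mark. In sorted bulk cells, fewer cells with a mark and less of the mark per cell cannot be told apart.

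The sorted identities were checked by H3K27ac. In Oct4+ libraries, 6 of 6 pluripotency genes (Pou5f1, Nanog, Sox2, Esrrb, Zfp42 and Klf4) had H3K27ac in at least 2 libraries. In DP and in Pdgfra+, 1 did, which was Klf4 in both. Of all genes, 69.0% passed this rule in Oct4+, 49.1% in DP and 33.9% in Pdgfra+. Nanog, Sox2 and Esrrb were at 0 in every DP and Pdgfra+ library, and Pou5f1 was listed in 1 library of each. Of 6 extra-embryonic endoderm genes, 6 passed in DP, 6 in Pdgfra+ and 5 in Oct4+, and Pdgfra itself was at 0 in all Oct4+ libraries. The pluripotency and endoderm counts thus did not tell DP from Pdgfra+. Summed over the 6 endoderm windows, H3K27ac covered 0 to 50.4 kb in Oct4+, 40.7 to 148 kb in DP and 65.4 to 103 kb in Pdgfra+. Fibroblast genes, which would mark feeder cells, covered 0 to 20.4 kb in Oct4+, 0 to 2.12 kb in DP and 0 kb in Pdgfra+, with Col1a1 in 2 Oct4+ libraries and Prrx1 at 0 in all 9 libraries. Of 4 trophectoderm genes, 2 had H3K27ac in at least 2 Oct4+ libraries, 3 in DP libraries and 2 in Pdgfra+ libraries, with summed coverage of 0 to 16.4, 7.31 to 20.8 and 3.63 to 15.8 kb. The part of endoderm or feeder cells in the Oct4+ values below was not tested.

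The measure compared was the covered percent, the share of a gene window that lies under listed peaks of a library. Over the 24 combinations of gene and mark, no difference between populations passed a Benjamini-Hochberg adjusted p of 0.05 in an exact permutation test of the 9 libraries of a mark (adjusted p 0.519 to 1 over all 21911 genes). In each of the 4 marks the test called 0% of all genes. The smallest p that this exact test can give is 0.00357. In the order H3K4me1, H3K27ac, H3K27me3 and H3K9me3, 832, 1623, 713 and 1654 genes had an unadjusted p under 0.05 (3.80, 7.41, 3.25 and 7.55%). In the same order, limma called 0, 186, 70 and 826 genes (0, 1.19, 0.861 and 9.28% of those it tested). Pairs of populations cannot go below p = 0.10 in an exact permutation test, so they were described by whether all 3 libraries of one lay above all 3 of the other, beside the percent of all genes for which this held. At least 1 pair of populations was separate in this way at 1 of the 6 genes for H3K4me1 (12.0% of all genes), 2 for H3K27ac (15.8%), 5 for H3K27me3 (13.9%) and 0 for H3K9me3 (17.3%). The 6 genes were chosen with results known, so these counts have no test.

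**Figure D1:**
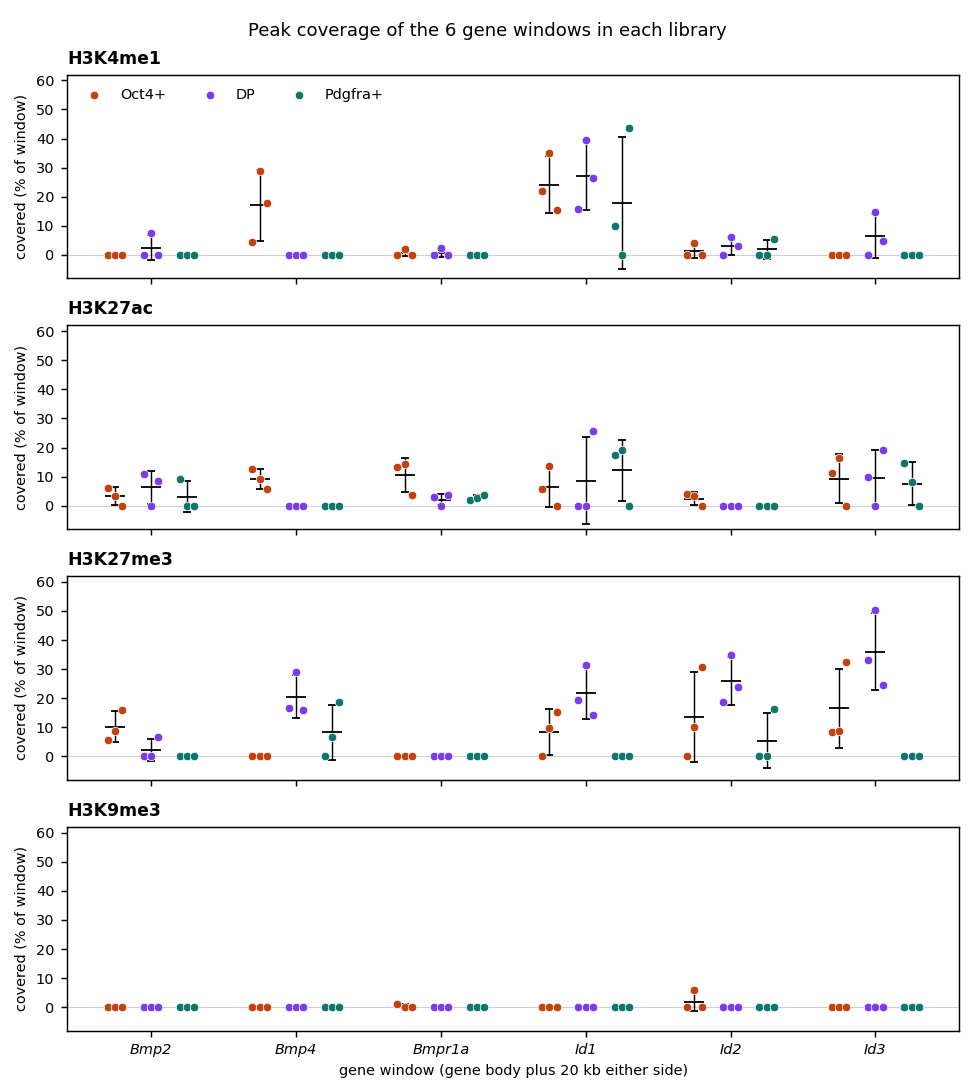
Covered percent of each gene window (y axis, % of the gene body plus 20 kb) in each library (points), with the mean and SD (n = 3) in black. Of the 9 libraries of each mark, only the Oct4+ libraries had H3K4me1 or H3K27ac peaks in the Bmp4 window, and DP libraries reached 50.4% for H3K27me3 at Id3.

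Bmp4 had H3K4me1 and H3K27ac peaks in Oct4+ alone and H3K27me3 peaks in DP and Pdgfra+ alone. The gene lies at chr14:46383520-46390669 on the minus strand. H3K4me1 covered 4.61, 29.0 and 17.8% of its window in the Oct4+ libraries and 0% in each of the 6 DP and Pdgfra+ libraries. H3K27ac covered 12.6, 9.10 and 5.69% in Oct4+ and again 0% in the other 6. H3K27me3 had the opposite arrangement, at 0% in the 3 Oct4+ libraries, 16.6, 29.2 and 16.0% in DP, and 0, 6.59 and 18.6% in Pdgfra+. The Oct4+ libraries did not overlap the others in either of the first 2 marks, nor the DP libraries in the third.

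The mean was 17.1 ± 12.2% (SD, n = 3) for H3K4me1 and 9.15 ± 3.48% for H3K27ac in Oct4+, and 20.6 ± 7.44% for H3K27me3 in DP. The exact permutation test gave p = 0.0357, 0.0357 and 0.0429 and adjusted p = 1, 0.519 and 1. Of all genes, 2.60% had Oct4+ above DP and 6.26% Oct4+ above Pdgfra+ for H3K4me1. H3K27ac gave 7.01% and 13.5% for these directions, and 9.36% had DP above Oct4+ for H3K27me3.

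As a description formulated after the values of Bmp4 were seen, peaks in 3 of 3 Oct4+ and 0 of 6 other libraries were found at 1.53% of genes for H3K4me1, 3.20% for H3K27ac and 0.310% for both. H3K27me3 in 3 of 3 DP and 0 of 3 Oct4+ libraries was found at 3.33% of genes. All of these together held for 9 genes, or 0.0411%, namely Bmp4, its neighbour Gm15217, and Gli2, Bnc2, Aym1, Nup210, Cacng7, Six4 and Tnfrsf19. Gm15217 starts 11.3 kb downstream of the Bmp4 start, so both windows share peaks.

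Within the window, distances are given from the annotated Bmp4 start, negative upstream. The most distant region ran from -23.7 to -17.5 kb, in intergenic sequence, and had H3K4me1 in 3 of 3 and H3K27ac in 2 of 3 Oct4+ libraries. Its H3K4me1 maximum lay at -20.3 kb in all 3 libraries, and its H3K27ac maximum at -20.2 kb in both. These maxima lie just beyond the 20 kb flank, so only the nearer side of the region enters the covered percent. By the enhancer classes of the study it was active (H3K4me1 with H3K27ac outside a promoter). A second intergenic region from -9.58 to -5.24 kb had H3K4me1 in 2 Oct4+ libraries and H3K27ac in 1. It counted as primed (H3K4me1 alone), because a mark had to be listed in at least 2 libraries to count. The promoter, from -2.33 to 0.995 kb, had H3K4me1 in 3 Oct4+ libraries and H3K27ac in 1. A last region from 7.75 to 11.3 kb, at the promoter of Gm15217, had H3K4me1 in 2 and H3K27ac in 3 Oct4+ libraries.

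H3K27me3 in DP was a block over the gene itself. It ran from -2.15 to 6.84 kb over all libraries, covered the promoter and most of the gene body in 3 of 3 DP libraries, and was listed in 2 of 3 Pdgfra+ libraries, of which 1 reached the promoter. The maximum lay 3.11, 0.670 and 3.12 kb downstream of the start in DP and 3.09 and 3.21 kb downstream in Pdgfra+. The Pdgfra+ library without it had the shortest H3K27me3 list, of 1143 peaks.

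**Figure D2:**
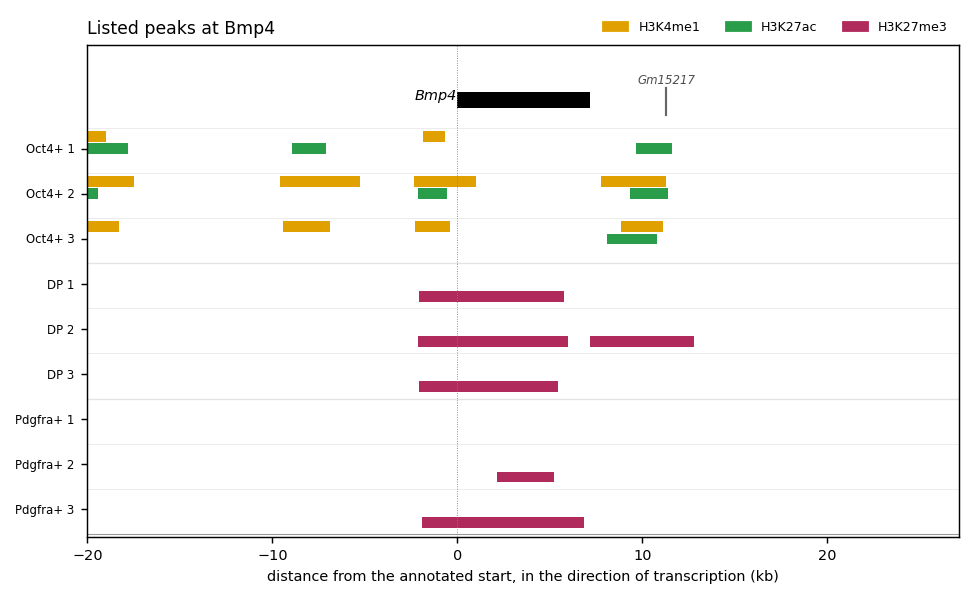
Listed peaks of H3K4me1, H3K27ac and H3K27me3 (coloured bars) along the Bmp4 window, with the separate libraries of the 3 marks grouped into rows by population and replicate number, as distance from the annotated start in kb. The black bar is the gene and the grey tick the start of Gm15217. The Oct4+ rows hold H3K4me1 at up to 4 places, each of which has H3K27ac in at least 1 row, and DP rows hold H3K27me3 over the gene.

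The absences at Bmp4 were read against the weakest peak that each list holds. The Oct4+ H3K27ac peaks had total signals of 5682 to 10826, near the bottom of their own lists (a median of 21.9% of a list lay below them), and the highest was under the lowest listed total signal of 5 of the 6 DP and Pdgfra+ lists. Those lists hold no peak as weak as these anywhere, and total signals are not scaled to depth. With each H3K27ac list held to its 3079 strongest peaks, no library had one at Bmp4. For H3K4me1 in Oct4+ replicate 2, the distal region reached 36246 and the promoter 19013, above the lowest listed total signal of every DP and Pdgfra+ list (4194 to 14106). In Oct4+ replicates 1 and 3 the same regions had 6094 to 11262, and each was under the lowest total signal of DP replicate 2 (14106). The promoter peak of Oct4+ replicate 1 (6094) was also under that of DP replicates 1 (6164) and 3 (6343) and Pdgfra+ replicate 3 (8007), and its distal peak (7090) under that of Pdgfra+ replicate 3. A median of 61.1% of a list lay below the H3K4me1 peaks. With 1074 peaks per H3K4me1 list, the Oct4+ mean exceeded DP by 1.76 points and the Oct4+ libraries overlapped the others. For H3K27me3 over the gene, the DP total signals were 36422 to 75171, above the lowest listed in every Oct4+ list (8165 to 23885). These totals are likewise not scaled to depth. With 1143 peaks per H3K27me3 list, the DP minus Oct4+ difference, 20.6 points with the full lists, was 0.

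**Figure D3:**
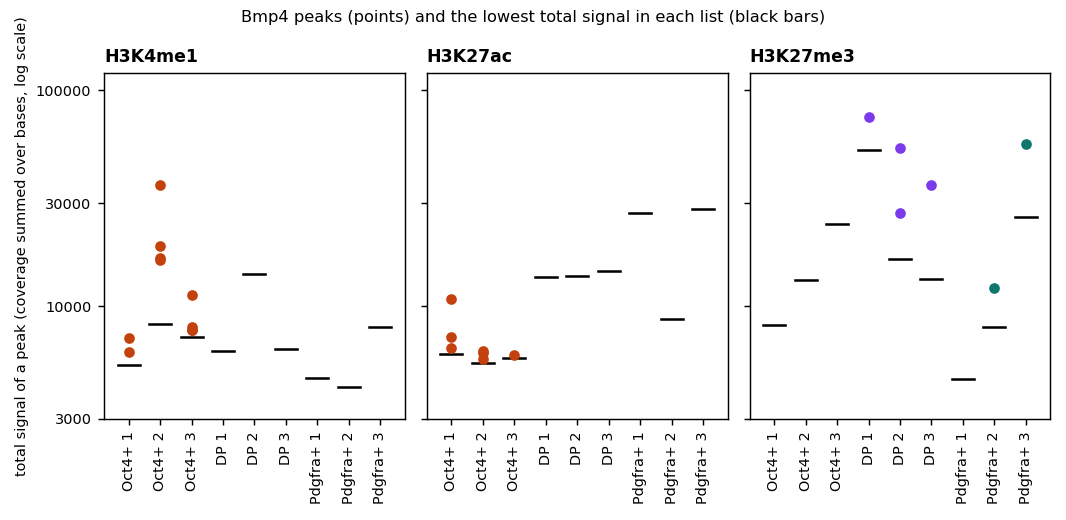
Total signal of each Bmp4 peak (points, log scale, coverage summed over bases) beside the lowest total signal listed in each library (black bars), for 3 marks. For H3K27ac the Oct4+ peaks, up to 10826, lie below the bars of the 3 DP lists, which start at 13683.

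The distal sequence is printed because the H3K4me1 maxima of all 3 Oct4+ libraries fall there, and the promoter sequence because it lies under H3K27me3 peaks of all 3 DP libraries and under an H3K4me1 peak of Oct4+ replicate 2. Capitals mark CpG dinucleotides. The distal window (300 bases, chr14:46410817-46411116, minus strand, GRCm38) is centred on the maximum of Oct4+ replicate 2. The promoter (chr14:46390670-46390919, minus strand, RefSeq, GRCm38.p6) is the 250 bases before the start.
Bmp4 distal: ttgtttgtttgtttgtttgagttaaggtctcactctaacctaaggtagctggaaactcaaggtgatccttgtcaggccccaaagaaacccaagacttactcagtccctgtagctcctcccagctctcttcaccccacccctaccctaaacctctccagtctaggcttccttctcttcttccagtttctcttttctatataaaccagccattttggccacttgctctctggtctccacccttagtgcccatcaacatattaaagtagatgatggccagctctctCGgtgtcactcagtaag
Bmp4 promoter: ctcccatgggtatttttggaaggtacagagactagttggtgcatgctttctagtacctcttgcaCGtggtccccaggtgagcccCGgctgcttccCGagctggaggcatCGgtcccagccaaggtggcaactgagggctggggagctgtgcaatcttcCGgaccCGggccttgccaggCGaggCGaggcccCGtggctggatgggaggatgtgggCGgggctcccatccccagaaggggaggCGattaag
The distal window held 1 CpG and was 47% GC, and 94.7% of the windows at the maxima of that H3K4me1 list held at least as many CpG. The promoter held 11 CpG and was 63.2% GC, and 35.6% of 32851 promoters in the RefSeq table held at least as many.

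Bmp2 was arranged differently from Bmp4, with H3K27me3 in Oct4+. The gene lies at chr2:133552159-133562885 on the plus strand. H3K27me3 covered 5.58, 8.91 and 16.1% of its window in Oct4+, 0, 0 and 6.71% in DP and 0% in all 3 Pdgfra+ libraries. All Oct4+ libraries lay above all Pdgfra+ libraries, as for 1.49% of all genes, while Oct4+ overlapped DP. The Oct4+ mean was 10.2 ± 5.40% (exact permutation p = 0.0714, adjusted p = 1). The block ran from -0.988 to 7.20 kb and its strongest total signal, 105237, was in Oct4+ replicate 3. In Oct4+ replicate 1 it was 11046, under the lowest listed in every DP list (13383 to 52608) and in Pdgfra+ replicate 3 (25863). In Oct4+ replicate 2 it was 29714, under the lowest listed in DP replicate 1 (52608) alone.

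H3K27ac at Bmp2 appeared in every population but never in all 3 libraries. It covered 6.19, 3.37 and 0% in Oct4+, 10.8, 0 and 8.46% in DP and 9.21, 0 and 0% in Pdgfra+ (adjusted p = 1). At the promoter, it was listed in 1, 2 and 1 of 3 libraries. H3K4me1 was listed in DP replicate 2 alone, at 7.69%. H3K27me3 lay over the promoter in 2 Oct4+ libraries, 1 DP library and 0 Pdgfra+ libraries.

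Bmpr1a, the receptor through which both ligands signal, had H3K27ac at its promoter in nearly every library and no H3K27me3 in any. It lies at chr14:34410734-34503341 on the minus strand, and its window of 133 kb is the longest of the 6. The promoter peak was listed in 3 Oct4+, 2 DP and 3 Pdgfra+ libraries, and DP replicate 2, without it, had the shortest H3K27ac list, of 3079 peaks.

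H3K27ac covered 13.4, 14.5 and 3.79% of the Bmpr1a window in Oct4+, 2.83, 0 and 3.56% in DP and 1.94, 2.63 and 3.76% in Pdgfra+. The lowest Oct4+ library lay just above the highest of the others. The means were 10.6 ± 5.90, 2.13 ± 1.88 and 2.78 ± 0.92% (exact permutation p = 0.05, adjusted p = 0.629). Of 7 regions listed in Oct4+ alone, 2 were in replicate 2 only, at 22.3 to 23.8 kb and 111 to 114 kb from the start. The other 5 had a peak in at least 2 Oct4+ libraries, 4 within the gene body between 12.2 and 55.0 kb from its start and 1 over exons of Mmrn2 beyond its end. The region from 40.6 to 44.3 kb, was at the start of a shorter Bmpr1a transcript and was listed in 3 of 3 Oct4+ libraries.

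Here too the lists differed in reach. The strongest total signal of that internal promoter region was 10466, under the lowest listed in 5 of the 6 DP and Pdgfra+ lists. At the main promoter, the total signals were 6298 to 14192 in Oct4+ and 16571 to 44709 in the others. With equal numbers of peaks, the sign of the Oct4+ minus DP difference turned, from 8.44 to -1.19 points. H3K4me1 was listed at Bmpr1a in 1 Oct4+ library (2.13%) and 1 DP library (2.23%), and H3K9me3 in 1 Oct4+ library (1.29%).

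**Figure D4:**
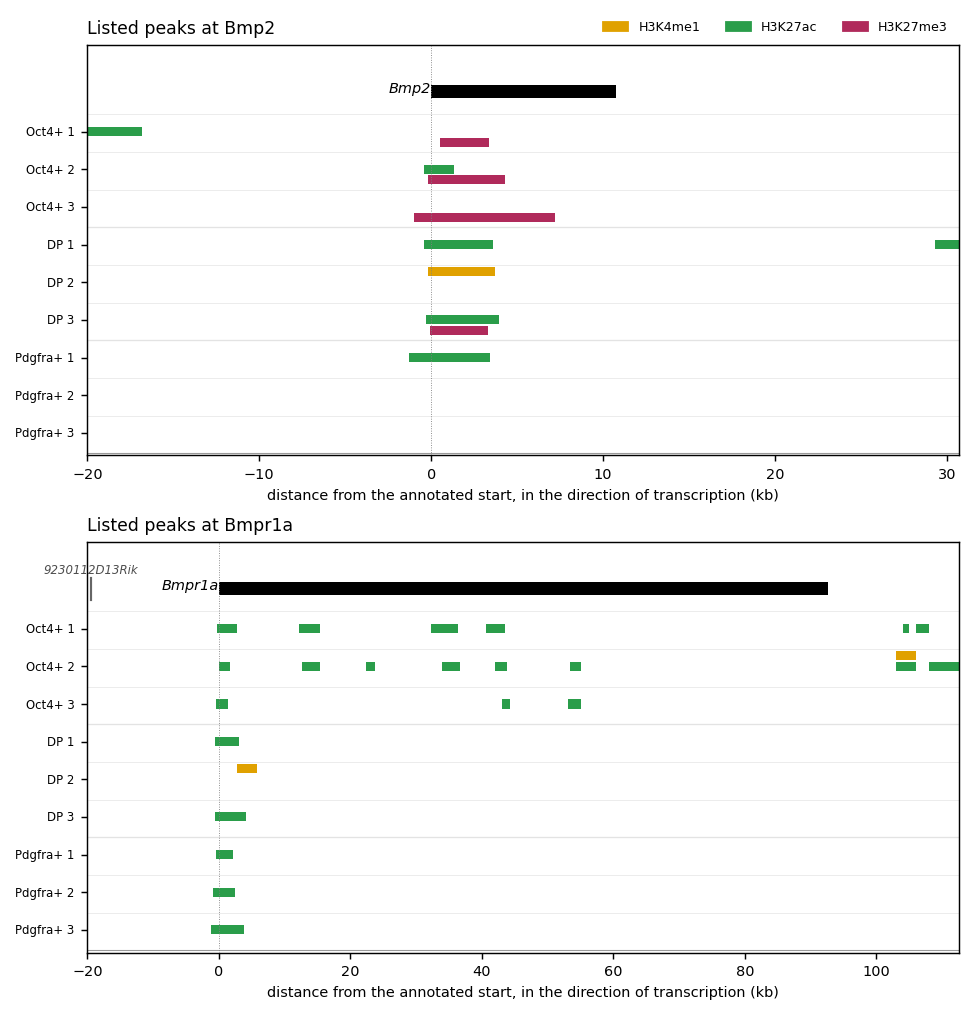
Listed peaks of 3 marks (coloured bars), with the separate libraries of each mark grouped into rows by population and replicate number, at Bmp2 and Bmpr1a, as distance from the annotated start in kb. The 3 Oct4+ rows carry H3K27me3 at Bmp2, and 8 of 9 rows carry H3K27ac at the Bmpr1a promoter with further bars within the gene in the Oct4+ rows.

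The Id genes shared an H3K27me3 pattern in which DP lay above Pdgfra+. At Id1 the covered percent was 0, 9.90 and 15.3 in Oct4+, 19.5, 31.5 and 14.2 in DP and 0 in the 3 Pdgfra+ libraries. At Id2 it was 0, 10.3 and 30.6 in Oct4+, 18.7, 35.0 and 24 in DP and 0, 0 and 16.3 in Pdgfra+. At Id3 it was 8.47, 8.78 and 32.3 in Oct4+, 33.2, 50.4 and 24.4 in DP and 0 in all 3 Pdgfra+ libraries. In each gene all DP libraries lay above all Pdgfra+ libraries, which held for 6.61% of all genes, and at Id3 the Oct4+ libraries also did.

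The DP minus Pdgfra+ difference was 21.7 points at Id1, 20.5 at Id2 and 36 at Id3. The exact permutation test of all 3 populations together, not of this pair, gave p = 0.0286, 0.196 and 0.0393 (adjusted p = 1 for each). Id3 was the one result of the 6 genes called by any alternative, with limma on the square root of the covered percent (adjusted p = 0.0473). For H3K27me3, limma called 0.861% of the genes it tested. A peak in 3 of 3 DP and 0 of 3 Pdgfra+ libraries, a rule set after these values were seen, was found at Id1, Id3 and 2.39% of all genes. Pdgfra+ H3K27me3 lists held 1143, 2841 and 6151 peaks, against 3798, 8672 and 6418 in DP. With 1143 peaks per list the difference was 0 points at Id1 and Id2 and 12.8 points at Id3, and the libraries overlapped at all 3.

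The position of H3K27me3 set the 3 genes apart. At Id1, which lies at chr2:152736251-152737410 on the plus strand, the mark was mostly not on the gene. It lay from 13.1 to 24.2 kb downstream, over the promoter of Cox4i2, a subunit of cytochrome c oxidase, in 2 Oct4+ and 3 DP libraries. Over the Id1 promoter it was listed in DP replicate 2 alone. In a window of 5 kb on either side of Id1, no pair of populations was separate.

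At Id2, at chr12:25093799-25097140 on the minus strand, H3K27me3 extended from -8.93 to 7.15 kb and touched the promoter in 1 Oct4+ and 2 DP libraries. The maximum lay upstream of the gene, at -2.70, -4.39 and -2.44 kb in DP for the block that reaches furthest upstream, and at -4.54 kb in the single Pdgfra+ library with a peak.

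Id3, at chr4:136143497-136145755 on the plus strand, had the widest block, from -13.2 to 9.99 kb. It broke into an upstream part with a maximum between -8.92 and -7.81 kb, listed by itself in 3 Oct4+ and 2 DP libraries, a part over the gene, and a downstream part with its maximum at 7.45 and 7.56 kb in DP replicates 2 and 3. In DP replicate 1 the last 2 parts were 1 peak, with its maximum at 7.49 kb. The part over the promoter was listed in 3 DP libraries and 1 Oct4+ library.

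In DP, the Id3 promoter was listed for H3K27ac, H3K27me3 and H3K4me1, each mark in its own libraries. H3K27ac covered 11.2, 16.5 and 0% of the Id3 window in Oct4+, 9.70, 0 and 19.3% in DP and 14.6, 8.16 and 0% in Pdgfra+ (p = 0.936 by exact permutation, adjusted p = 1). H3K27ac lay over the promoter in 2 of 3 libraries of each population. H3K27me3 lay over it in 3 of 3 DP libraries, and H3K4me1 in 2 of 3, at 14.6 and 4.81% of the window. Whether the marks lie on the same chromosomes or cells was not measured. No Oct4+ or Pdgfra+ library had H3K4me1 at Id3. The libraries with no Id3 H3K27ac peak had the shortest list of Oct4+ (8574) and of DP (3079), and a list of 4861 in Pdgfra+.

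**Figure D5:**
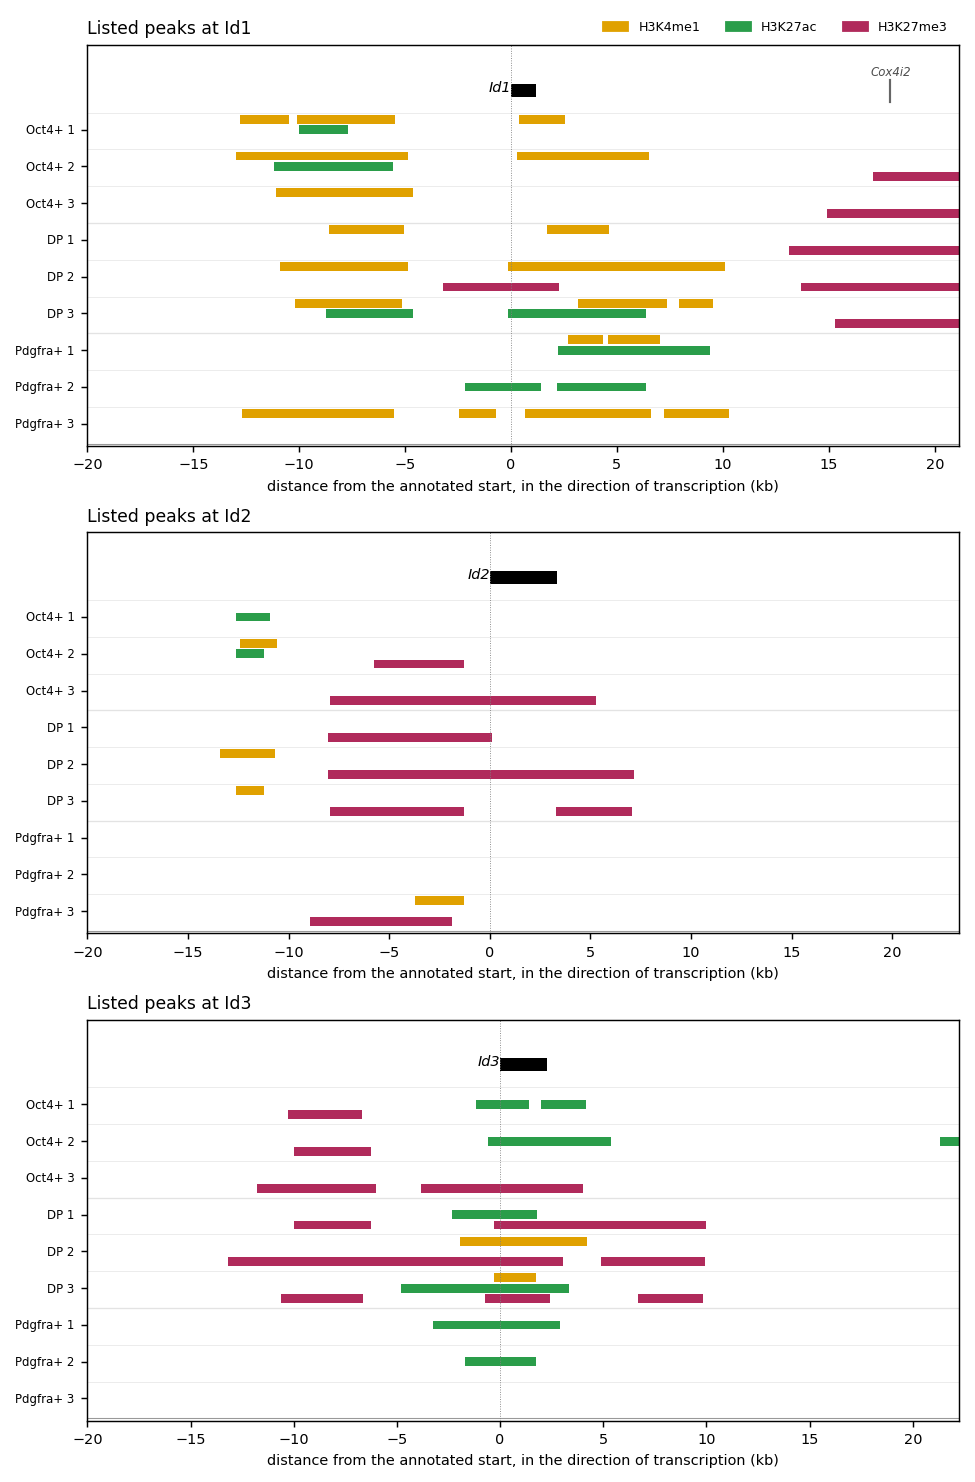
Listed peaks of 3 marks (coloured bars), with the separate libraries of each mark grouped into rows by population and replicate number, at Id1, Id2 and Id3, as distance from the annotated start in kb. H3K27me3 lies beside Cox4i2 in the Id1 window, upstream of and over Id2, and on both sides of Id3 in the DP rows, with no H3K27me3 in the Pdgfra+ rows at Id1 and Id3.

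By mean, H3K4me1 covered more of the Id1 window than of the other 5 windows in each population. It covered 21.9, 34.9 and 15.6% of the window in Oct4+, 15.7, 39.5 and 26.5% in DP and 9.99, 0 and 43.5% in Pdgfra+, so that all populations overlapped (exact permutation p = 0.743, adjusted p = 1). A distal intergenic region from -13.0 to -4.64 kb was listed in 3 Oct4+, 3 DP and 1 Pdgfra+ library. The median Id1 peak had a higher total signal than 95.5% of its own list in Oct4+, 92.1% in DP and 74.2% in Pdgfra+. The Pdgfra+ lists without the distal region held 1723 and 1074 peaks.

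H3K27ac at the distal Id1 region was listed in 2 Oct4+ libraries and 1 DP library, so it counted as active in Oct4+ and primed in DP. The difference in class thus rests on 1 library. The total signal was 8700 in Oct4+ replicate 1, under the lowest listed in every DP list (13683 to 14586). It was 19098 in Oct4+ replicate 2 and 16177 in DP replicate 3. Next to the gene the order differed. A region from -2.17 to 9.39 kb had H3K27ac in 0 Oct4+, 1 DP and 2 Pdgfra+ libraries, and its total signals of 26016 to 48757 lay above the lowest listed in any Oct4+ list. H3K4me1 on the same stretch, from -0.160 to 10.3 kb, was listed in 2 Oct4+, 3 DP and 2 Pdgfra+ libraries. The Pdgfra+ region of both marks, downstream of the Id1 start, counted as active. Over the whole window H3K27ac covered 5.66, 13.6 and 0% in Oct4+, 0, 0 and 25.8% in DP and 17.5, 19.0 and 0% in Pdgfra+ (adjusted p = 1 by the exact permutation test).

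Id2 had a distal region from -13.4 to -10.6 kb. H3K4me1 there was listed in 1 Oct4+ and 2 DP libraries, and H3K27ac in 2 Oct4+ libraries and no other. Its H3K27ac total signals, 6059 and 7384, were under the lowest listed in all 6 DP and Pdgfra+ lists. It counted as primed in DP. H3K27ac covered 4.14, 3.24 and 0% of the window in Oct4+ and 0% elsewhere (exact permutation p = 0.25, adjusted p = 0.636). H3K9me3 was listed in Oct4+ replicate 2 alone, at 5.92%.

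The sequences at the maxima of the distal Id1 region (H3K4me1, Oct4+ replicate 2, chr2:152727049-152727348, plus strand) and the distal Id2 region (H3K27ac, Oct4+ replicate 2, chr12:25108870-25109169, minus strand) are printed for comparison with that of Bmp4, and the 250 bases before Id3 (chr4:136143247-136143496, plus strand) as a place under H3K27ac peaks in 2 and H3K27me3 peaks in 3 DP libraries. Capitals mark CpG, and all were read from GRCm38.
Id1 distal: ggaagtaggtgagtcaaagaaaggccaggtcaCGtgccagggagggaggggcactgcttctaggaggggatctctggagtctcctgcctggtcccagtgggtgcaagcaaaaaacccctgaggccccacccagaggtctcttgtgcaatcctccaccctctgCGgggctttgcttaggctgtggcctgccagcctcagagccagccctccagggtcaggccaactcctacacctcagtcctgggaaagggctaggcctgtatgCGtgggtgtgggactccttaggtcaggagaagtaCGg
Id2 distal: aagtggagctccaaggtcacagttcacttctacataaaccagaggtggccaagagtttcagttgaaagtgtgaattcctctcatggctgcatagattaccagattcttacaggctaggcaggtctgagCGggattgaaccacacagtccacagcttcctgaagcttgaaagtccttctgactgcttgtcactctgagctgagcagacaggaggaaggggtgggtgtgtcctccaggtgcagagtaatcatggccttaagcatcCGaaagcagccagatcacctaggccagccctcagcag
Id3 upstream: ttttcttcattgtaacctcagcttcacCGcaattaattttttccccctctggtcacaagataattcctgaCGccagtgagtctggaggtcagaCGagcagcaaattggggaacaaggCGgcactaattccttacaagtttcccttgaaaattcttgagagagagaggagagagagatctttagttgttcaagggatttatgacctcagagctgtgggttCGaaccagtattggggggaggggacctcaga
They held 4, 2 and 5 CpG. At least as many were held by 56.9% of the H3K4me1 windows, 74.5% of the H3K27ac windows and 55.6% of the RefSeq promoters of the same length. The Id3 stretch lies before the GENCODE start. The RefSeq promoter of Id3 is a different stretch further downstream (chr4:136143572-136143821), so the comparison with RefSeq promoters is not between like positions. A search of both strands of the 5 printed sequences for the SMAD GC box GGCGCC, the POU octamer ATGCAAAT and the GATA motif AGATAA found 1 match, a GATA motif before Id3, and such a motif was held by 9.99% of promoters. The other motifs were held by 9.59 and 1.60% of promoters and, over the 2 lists used, by 4.01 to 4.68 and 1.31 to 2.46% of windows.

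Across genes, the order of levels within a population was loose. In DP, the mean H3K27me3 covered percent was 36 ± 13.2 at Id3, 25.9 ± 8.29 at Id2, 21.7 ± 8.91 at Id1, 20.6 ± 7.44 at Bmp4, 2.24 ± 3.88 at Bmp2 and 0 at Bmpr1a. Neighbours in this order overlapped, except that every DP library was higher at Bmp4 than at Bmp2. In Oct4+, mean H3K27ac ran from 10.6 ± 5.90 at Bmpr1a through 9.25 ± 8.44 at Id3, 9.15 ± 3.48 at Bmp4, 6.42 ± 6.82 at Id1 and 3.19 ± 3.10 at Bmp2 to 2.46 ± 2.18 at Id2, and neighbours overlapped throughout.

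In all, the 6 windows held 11 H3K4me1, 17 H3K27ac and 9 H3K27me3 regions with a peak in at least 2 libraries of a population, counted once per population. Of the 11 H3K4me1 regions, 4 were at promoters, 3 active, 4 primed and none bivalent (H3K4me1 with H3K27me3 outside a promoter). The 3 active regions were the distal Bmp4 and Id1 regions of Oct4+ and the Id1 region of Pdgfra+. The Id3 promoter of DP was the one H3K4me1 region that overlapped regions of both H3K27ac and H3K27me3 from the same population. Of the 6 genes, H3K4me1 was listed in at least 2 libraries at 2 in Oct4+, 3 in DP and 1 in Pdgfra+, beside 29.0, 33.9 and 10.1% of all genes. The counts were 6, 3 and 3 for H3K27ac, beside 69.0, 49.1 and 33.9%. They were 4, 4 and 1 for H3K27me3, beside 17.7, 30.9 and 15.4%.

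Of 37 other genes of the pathway, H3K27me3 was listed in at least 2 libraries at 15 in Oct4+, 17 in DP and 9 in Pdgfra+. These were 40.5, 45.9 and 24.3%, beside 17.7, 30.9 and 15.4% of all genes. The median covered percent of the 37 was 1.58, 2.33 and 0, against 0 for all genes in each population. The H3K4me1 counts were 12, 13 and 5 (32.4, 35.1 and 13.5%, beside 29.0, 33.9 and 10.1% of all genes). The H3K27ac counts were 26, 18 and 10 (70.3, 48.6 and 27%, beside 69.0, 49.1 and 33.9%). The H3K9me3 counts were 19, 18 and 15 (51.4, 48.6 and 40.5%, beside 35.5, 30.1 and 25.7%). A share above that of all genes in each population was thus not particular to H3K27me3. These differences in share were not tested. None of the 37 passed the adjusted threshold in the exact permutation test for any mark, and limma called 1, Gdf2 for H3K27ac (adjusted p = 0.0462). For H3K27ac, limma called 1.19% of the genes it tested.

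Counted by separate libraries, H3K4me1 lay higher in Oct4+ than DP at 2 of the 37 genes (2.60% of all genes) and than Pdgfra+ at 4 (6.26%). It lay higher in DP than Oct4+ at 2 (3.87% of all genes) and than Pdgfra+ at 2 (3.55%). The widest gaps were at the receptor genes Acvrl1 (18.6 ± 9.50% in Oct4+, 2.24 ± 3.87% in Pdgfra+) and Acvr2b (8.31 ± 4.77% in Oct4+, 0 elsewhere) and the ligand gene Gdf7 (9.85 ± 5.89% in DP, 0 in Pdgfra+). H3K27ac lay higher in Oct4+ than DP at 5 (7.01% of all genes) and than Pdgfra+ at 7 (13.5%), and in the reverse directions at 0 (0.580 and 0.698%). Among these were Acvr2b (14.6 ± 10.4% in Oct4+, 0 in Pdgfra+) and the ligand genes Gdf2 (14.4 ± 8.09% in Oct4+, 0 elsewhere) and Gdf5 (10.4 ± 4.05% in Oct4+, 2.55 ± 2.35% in DP).

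H3K27me3 lay higher in DP than Oct4+ at 3 of the 37 genes, a share near the 9.36% of all genes. It lay higher in DP than Pdgfra+ at 4 (6.61% of all genes), which were Smad5 and the inhibitor genes Nog, Chrd and Fst. Nog, a secreted BMP antagonist, had 29.0 ± 7.24% in DP, 14.0 ± 16.1% in Oct4+ and 0 in Pdgfra+. At Acvrl1 the means were 28.4 ± 5.12% in DP and 8.08 ± 4.18% in Oct4+, and at Bmp7, a further ligand, 27.4 ± 6.34 and 7.58 ± 5.55%. For H3K9me3, which was nearly absent from the 6 genes, Oct4+ was higher than DP at 1 (6.06% of all genes), DP higher than Oct4+ at 6 (5.57%) and Pdgfra+ higher than Oct4+ at 3 (4.13%). These included Bmp7 (11.2 ± 3.16% in DP, 6.25 ± 1.90% in Oct4+), Gdf2 (7.61 ± 1.92% in Pdgfra+, 1.67 ± 2.89% in Oct4+) and Bmp8a (6.24 ± 0.107% in DP, 1.45 ± 1.49% in Oct4+).

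The genes most like each of the 6 in covered percent over the 36 libraries were taken as a description, since the points share list lengths and marks differ in level. They were Mcam and Extl1 for Bmp4 (Pearson's r = 0.938 and 0.929), Gadd45g and Foxq1 for Bmp2 (0.796 and 0.782), and Med26 and Ipo7 for Bmpr1a (0.981 and 0.980). For the targets they were Arhgef25 and Dpf1 for Id1 (0.822 and 0.80), Hoxc6 and Hoxc8 for Id2 (0.976 and 0.974) and Dusp8 and Sphk1 for Id3 (0.933 and 0.930). Among the 6 genes themselves, the highest value was 0.814, between Id2 and Id3, and Bmp4 with Bmp2 gave -0.136.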

How the data were processed

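CUT&Tag libraries were prepared by the authors for 4 histone marks in 3 sorted populations with 3 replicates each (36 lists, no 2 of them identical). The 3 IgG samples had no list and entered no comparison. Per the submitters' processing notes and the methods, the authors processed reads with bcl2fastq 2.19.1, Bowtie2, SAMtools 1.12, deepTools and bedtools 2.26.0 on mm10, and peaks were called per library against IgG with SEACR in stringent mode. The deposited values are signal, fragment coverage summed over the bases of a peak, in whole numbers not scaled to depth. Neither the depth of the libraries nor the SEACR normalization setting is stated in the paper or labels, so absence means only that no peak was listed.

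Genes came from GENCODE vM21 (21911 protein-coding genes after leaving out 27 repeated symbols), and no peak ran past a GRCm38 chromosome end. The covered percent of each window was compared over the 9 libraries of a mark by exact permutation, with the F statistic of the 3 populations recomputed for every partition of the libraries (two-sided), with Benjamini-Hochberg adjustment over all genes of the mark. Both the test and limma 3.58.1 in R 4.3.3, used as an alternative on genes with a mean covered percent of at least 1, were tested on simulated data. Promoters ran from 1 kb before to 100 bp after a start. The computations used Python 3.11.15, NumPy 2.4.6, pandas 2.3.3 and Matplotlib 3.10.9. Of the 6 genes, 4 had a promoter entry in the RefSeq table, and the promoters of Bmpr1a, Id2 and Id3 there overlap annotated exons and were not printed.

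The 6 genes, the list of 37 further pathway genes and the marker lists were chosen with earlier results of these data known. Named were all 6 genes, up to 3 pathway genes per mark with the widest gap between population means among those with separate populations, and the 2 genes over 1 Mb away with the most similar values. Regions named were those with H3K4me1 or H3K27ac in at least 2 libraries of a population. Others were chosen after their values were seen. Alternatives were an equal number of peaks per list, the strongest 50% of peaks, the share of listed signal, windows of 5 and 50 kb, leaving out a replicate, a replicate block, limma and, chosen after seeing the data, leaving out the shortest list of each population.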

Additional observations from a re-analysis of the deposited data

How the results depend on the processing

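Sequencing depth is unknown, and list length limits every comparison of peaks. The number of genes of the 6 with separate populations was 1 for H3K4me1, 2 for H3K27ac, 5 for H3K27me3 and 0 for H3K9me3, beside 12.0, 15.8, 13.9 and 17.3% of all genes. With equal numbers of peaks per list it was 0, 0, 0 and 0, and with the strongest 50% of peaks the H3K27ac count was 0 and the H3K27me3 count 1 (Id3). With 50 kb on either side the H3K27ac count was 1 (Bmp4) and the H3K9me3 count 2 (Bmpr1a and Id1). Leaving out 1 replicate gave 1 to 2 for H3K4me1 (2 without replicate 1, with Id3, and 2 without replicate 3, with Id1), 2 to 5 for H3K27ac (3 without replicate 2, with Bmp2, and 5 without replicate 3, with Id1, Id2 and Id3) and 5 for H3K27me3 in each case. Without the shortest list of each population, chosen after seeing the data, the counts were 2 (with Id3) for H3K4me1 and 5 for H3K27ac (with Bmp2, Id2 and Id3). Bmp4 was separate for H3K4me1 in each of these apart from equal numbers of peaks. The cause was not tested. No share of all genes is given for these other settings, so the shares above are not a background for their counts. With fewer libraries per population, separation is easier to reach.

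Of 204 alternative values for the differences of the 6 genes, 170 kept their direction, 25 were 0 and 9 reversed. The 170 include 19 values with the replicate block and all those with limma. These 2 settings change only the p-value and repeat the main difference, so their direction was fixed in advance. Where the lower population had no peak in any library, as at Bmp4 for H3K4me1 and H3K27ac, most other settings could not reverse it either. Fewer peaks, fewer libraries, windows of 5 kb or the share of signal could then give only a positive value or 0. The count of 170 is thus no measure of how stable the differences are. For H3K4me1 at Id1, DP minus Pdgfra+ (9.41 points) was -0.00866 as a share of listed signal, and -5.65 to 22.6 with 1 replicate left out. For H3K27ac, Oct4+ minus DP at Bmpr1a was -1.19 with equal numbers of peaks, and Pdgfra+ minus Oct4+ at Id1 (5.74) was -15.4 with 50 kb and -0.138 without the shortest lists. DP minus Pdgfra+ at Id3 (2.07) was -1.16 with equal numbers, -1.16 with the strongest 50%, -0.00498 as a share of signal, and -6.54 to 7.19 with 1 replicate left out. The lowest adjusted p was 0.296 over the exact tests and 0.0473 with limma.

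Consensus regions in the 6 windows numbered 11 for H3K4me1, 17 for H3K27ac and 9 for H3K27me3. They fell to 5, 4 and 6 when all 3 libraries were required. With 50% reciprocal overlap they fell to 7, 12 and 6, and with the strongest 50% of peaks to 5, 9 and 7. Promoter regions fell from 4 to 2, 2 and 1 under these settings in turn, and active regions from 3 to 0, 0 and 2. Primed regions went from 4 to 3, 5 and 2.

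Same-numbered libraries of different populations correlated above 0.1 in 4, 1, 3 and 3 of 9 pairs for H3K4me1, H3K27ac, H3K27me3 and H3K9me3. Of 9 libraries, 3, 2, 4 and 2 were nearest to their own number. Whether the numbers pair the samples cannot be told from these values, because list lengths also enter the correlations. With the replicate number as a block, the lowest exact permutation p for the 6 genes was 0.111 and the lowest adjusted p 0.844, and 0 genes of any mark were called.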
